A study of Mus musculus with 12 samples.

Results

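The Reelin pathway was followed through 7 genes, Reln, Dab1, Vldlr, Lrp8, Crk, Crkl and Fyn, chosen by name as the ligand, its receptors and its first intracellular adaptors and kinase. All 7 were found among the 53379 gene rows of each count table and all 7 passed the filter on low counts that left 13442 genes for testing. RNA came from the external granule layer (EGL) of the central lobules of the cerebellum, taken by laser capture at postnatal day 6. This outer layer holds the dividing precursors of granule neurons. The knockout group was 6 libraries from C57BL/6 SnoN conditional knockout mice (SnoN, encoded by Skil, is a transcriptional regulator that binds SMAD proteins), numbered 2, 3, 4, 5, 6 and 8 and written here as KO2 and so on. The wild-type group was 6 libraries from wild-type littermates of the same strain and age, numbered 1, 2, 3, 5, 6 and 7 and written as WT1 and so on. KO4 and WT2 carry a note in the labels that marks them as outliers of a robust principal component analysis, so 5 knockout libraries were compared with 5 wild-type libraries and the values of KO4 and WT2 are given beside them. KO2 is a knockout by its title and a wild type by its genotype tag, and was kept as a knockout. The labels name neither the Cre line nor the deleted part of Skil. They also leave unsaid whether every library is an animal of its own; p-values here reflect library-to-library spread, part of which may be technical.

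Reelin is a large secreted glycoprotein. In the developing cerebellum it is made by cells of the granule lineage and acts on Purkinje cells, whose migration into a single layer depends on it. It binds the lipoprotein receptors Vldlr and Lrp8 (also called ApoER2), which clusters the adaptor Dab1 on their tails. Src family kinases, mainly Fyn, phosphorylate Dab1 on tyrosines, and the adaptors Crk and Crkl bind the phosphorylated sites and pass the signal to Rap1. Loss of Reln, of Dab1 or of both receptors together in mice gives the reeler type of disordered cerebellum and cortex.

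Library depth was between 7520076 gene counts in WT6 and 15083086 in KO8, and levels are given as CPM, counts per 1e+06 after TMM scaling (a correction for library composition). Skil averaged 30.7 ± 6.39 CPM in knockout and 49.9 ± 7.98 CPM in wild type (SD, n = 5 each). Every one of the 5 knockout libraries lay below every wild-type library, and 2.35% of all genes tested had groups that did not overlap. The log2 fold change of Skil was -0.70 and did not pass an adjusted p of 0.05 over all genes (edgeR adjusted p = 0.124). It passed in 6 of the 22 alternative fits run. Markers of the layer were present, with Atoh1, the transcription factor that defines granule neuron precursors, at 87.1 to 114.2 CPM in knockout and 75.1 to 115.2 CPM in wild type. Markers of other cells were present too. Calb1, a Purkinje cell calcium-binding protein, was at 105.8 to 208.9 CPM in knockout and 79.7 to 113.8 CPM in wild type, and Gdf10, a Bergmann glia gene, at 10.1 to 16.9 CPM in knockout and 6.67 to 17.9 CPM in wild type. Inhibitory interneuron markers summed to 93.1 to 148 CPM in knockout and 97.0 to 120 CPM in wild type, although one of them, Pax2 of their precursors, reached at most 0.617 CPM in knockout and 1.157 CPM in wild type. Of 5 interneuron markers tested, 3 were higher and 1 lower in knockout at an unadjusted p under 0.05, against 11.8% and 9.97% of all genes, with a median log2 fold change of 0.69, and 0 passed over all genes in edgeR. Gad1 and Lhx1 are in this list and in the Purkinje cell list used below, so the lists are not independent. The oligodendrocyte lineage list ran the other way. Of 6 of its markers tested, 0 were higher and 3 lower at that unadjusted p, against the same shares of all genes. Their median log2 fold change was -0.46, and 0 passed in edgeR.

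None of the 7 genes passed a Benjamini-Hochberg adjusted p of 0.05 over all genes in edgeR's quasi-likelihood test, a threshold that 0.0223% of the 13442 genes passed. At an unadjusted p under 0.05 there were 3 of the 7, against 21.8% of all genes (2925): Vldlr and Crk with higher means in knockout and Crkl with a lower one. In DESeq2, 1 of the 7 passed, Crkl, and 3.34% of all genes did. The median log2 fold change of the 7 was 0.17, against 0.0013 over all genes. For none of the 7 were the 5 knockout libraries apart from the 5 wild-type libraries, which held for 2.35% of all genes. The receptors had the lowest levels and the adaptor Crk the highest. The level of 6 of the 7 moved with the slope of log2 CPM on transcript GC in each library, described further down (absolute Pearson r above 0.7). That held for 38.3% of all genes.

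Compared per kilobase of annotated exon, so that genes of different length can be set side by side, the order of the members was the same by their means in knockout and wild type. Crk led with 66.0 ± 6.80 CPM per kb in knockout and 54.9 ± 3.75 CPM per kb in wild type (SD, n = 5 each, here and below), above 92.0% of the genes tested by its wild-type level. Fyn followed with 15.8 ± 2.79 in knockout and 18.4 ± 0.477 CPM per kb in wild type. Reln had 8.72 ± 1.67 in knockout and 7.74 ± 0.598 CPM per kb in wild type. Crkl had 4.595 ± 1.13 in knockout and 6.95 ± 1.35 CPM per kb in wild type. In wild type the ranges of Reln and Crkl overlapped (7.08 to 8.67 and 5.22 to 8.34 CPM per kb), and in knockout they did not (6.83 to 10.9 and 3.33 to 6.06 CPM per kb). That contrast depends on the length used. Per kilobase of the longest transcript, Reln had 15.7 ± 1.21 and Crkl 6.95 ± 1.35 CPM per kb in wild type. Dab1 had 2.62 ± 0.4645 in knockout and 2.27 ± 0.380 CPM per kb in wild type. Vldlr had 1.47 ± 0.423 in knockout and 1.004 ± 0.248 CPM per kb in wild type. Lrp8 was lowest with 0.909 ± 0.151 in knockout and 0.848 ± 0.206 CPM per kb in wild type, above 16.6% of the genes tested, and its range overlapped that of Vldlr in both groups. The annotated exons of Reln add up to 23.7 kb and its longest transcript to 11.7 kb, so per kilobase of that transcript its level was 17.7 in knockout and 15.7 CPM per kb in wild type. Its place, between Fyn and Crkl, was the same by both lengths. Per kilobase of the longest transcript Vldlr and Lrp8 change places in wild type (1.27 and 1.345 CPM per kb) but not in knockout (1.86 and 1.44 CPM per kb).

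**Figure D1:**
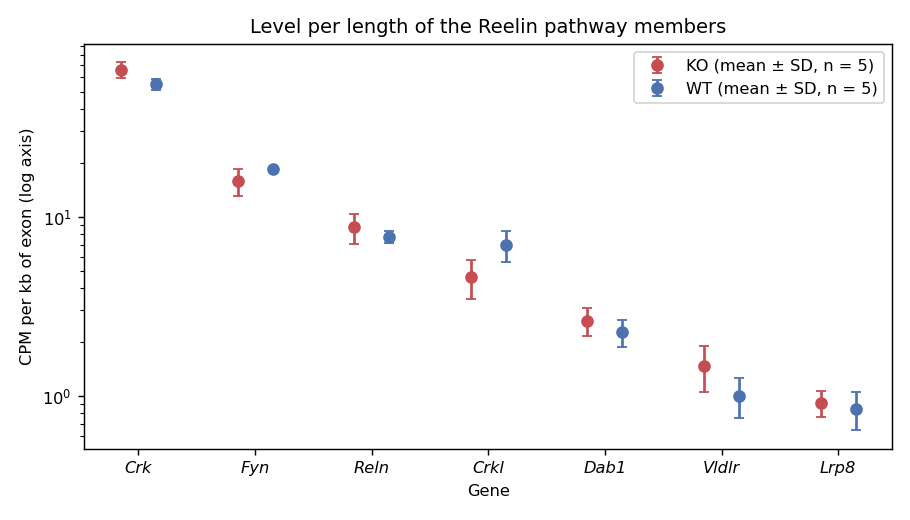
Level of the 7 members in CPM per kilobase of exon (log axis) by gene, in knockout (red, left of each pair) and wild type (blue, right), as mean and SD of 5 libraries each. Crk stands highest at 66.0 in knockout and 54.9 in wild type, and Vldlr and Lrp8 lie lowest.

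The bases upstream of the transcription start are shown for the ligand and for the 3 members with an unadjusted p under 0.05, since SnoN is a cofactor of SMAD proteins, which bind CAGAC. The windows are the 250 bases before the RefSeq start in GRCm38.p6, the build also called mm10: chr5:22344706-22344955 (minus strand), chr19:27216234-27216483, chr11:75679009-75679258 and chr16:17451735-17451984 (plus strand). Capitals mark CAGAC or its reverse complement GTCTG.
Reln: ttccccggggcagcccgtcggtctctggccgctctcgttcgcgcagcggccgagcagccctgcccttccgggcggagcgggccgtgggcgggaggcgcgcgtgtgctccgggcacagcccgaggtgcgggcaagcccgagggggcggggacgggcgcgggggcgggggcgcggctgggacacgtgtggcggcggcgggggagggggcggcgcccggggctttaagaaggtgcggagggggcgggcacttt
Vldlr: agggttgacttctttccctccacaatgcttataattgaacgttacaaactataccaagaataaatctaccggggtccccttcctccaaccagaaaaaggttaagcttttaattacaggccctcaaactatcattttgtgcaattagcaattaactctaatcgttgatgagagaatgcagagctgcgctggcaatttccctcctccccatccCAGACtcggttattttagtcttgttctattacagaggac
Crk: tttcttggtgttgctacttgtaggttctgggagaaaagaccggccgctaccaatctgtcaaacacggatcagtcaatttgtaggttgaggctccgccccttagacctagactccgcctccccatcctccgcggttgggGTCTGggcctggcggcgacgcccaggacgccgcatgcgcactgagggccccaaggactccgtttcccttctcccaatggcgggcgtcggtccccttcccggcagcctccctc
Crkl: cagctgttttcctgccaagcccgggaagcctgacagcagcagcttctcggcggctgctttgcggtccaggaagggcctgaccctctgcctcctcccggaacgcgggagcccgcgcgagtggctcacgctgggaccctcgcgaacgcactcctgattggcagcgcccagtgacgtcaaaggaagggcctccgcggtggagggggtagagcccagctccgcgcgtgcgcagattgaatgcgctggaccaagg
The Vldlr and Crk windows each hold 1 match, and the Reln and Crkl windows hold 0. Of the windows of all 7 members 3 hold a match, the other being that of Lrp8, while 42.2% of the 32851 RefSeq windows of this length do. The windows differ widely in base composition: 80% of bases are G or C in that of Reln, 67.6% in Crkl, 62.4% in Crk and 41.6% in Vldlr, with a median of 52.4% over all windows. A match is a run of letters and was not tested for binding.

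Reln (ENSMUSG00000042453.14, chromosome 5, 21884454 to 22344702, minus strand, in the GENCODE M21 annotation of GRCm38), the ligand, was at 226 (KO2), 258 (KO3), 162 (KO5), 172 (KO6) and 218 CPM (KO8) in knockout, against 168 (WT1), 186 (WT3), 206 (WT5), 175.5 (WT6) and 184 CPM (WT7) in wild type. KO2, KO3 and KO8 lay above every wild-type library, whereas KO5 was below every one and KO6 within their range. The mean was 207 ± 39.7 CPM in knockout and 184 ± 14.2 CPM in wild type (SD, n = 5 each), which gave a log2 fold change of 0.17 (SE 0.12; edgeR adjusted p = 0.410; two-sided exact permutation p = 0.294). The spread within a group was wider in knockout, with a coefficient of variation of 19.2% against 7.72% in wild type, while counting error was at most 2.66%. The summed level of 15 markers of granule neuron precursors was 5876 to 8837 CPM in knockout and 5093 to 6955 CPM in wild type, with 6958 CPM in KO4 and 8269 CPM in WT2; its part in the value of Reln was not tested. KO4 had 244 CPM, and WT2 had 325 CPM, the highest value of the 12 libraries. Reln spans 4 annotated genes on the opposite strand, and the kit used marks no strand, so reads of those genes and of Reln cannot be told apart by strand.

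Vldlr (ENSMUSG00000024924.14, chromosome 19, 27216484 to 27254231, plus strand), one of the 2 Reelin receptors, was at 14.1 (KO2), 19.5 (KO3), 9.45 (KO5), 12.3 (KO6) and 18.7 CPM (KO8) in knockout, against 8.74 (WT1), 12.9 (WT3), 8.996 (WT5), 7.30 (WT6) and 12.6 CPM (WT7) in wild type. The same 3 knockout libraries, KO2, KO3 and KO8, were above every wild-type library, and KO5 and KO6 were within the wild-type range. The mean was 14.8 ± 4.26 CPM in knockout and 10.1 ± 2.495 CPM in wild type (SD, n = 5 each). The log2 fold change of 0.55 had a standard error of 0.21 and a 95% interval from 0.11 to 0.99. It did not pass over all genes (edgeR unadjusted p = 0.0181, adjusted p = 0.164; two-sided exact permutation p = 0.0556). KO4, at 6.72 CPM, and WT2, at 20.8 CPM, stood in the opposite order, and with them included the log2 fold change was 0.19 (edgeR adjusted p = 0.999). Counts were low, from 59 in WT6 (exact Poisson 95% interval 44.9 to 76.1, which covers counting error only) to 260 in KO8.

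Lrp8 (ENSMUSG00000028613.14, chromosome 4, 107802261 to 107876840, plus strand), the other receptor, had closely overlapping groups. It was at 10.1 (KO2), 9.43 (KO3), 8.38 (KO5), 7.91 (KO6) and 11.9 CPM (KO8) in knockout, against 12.1 (WT1), 9.07 (WT3), 9.625 (WT5), 6.56 (WT6) and 7.26 CPM (WT7) in wild type. All knockout libraries were within the wild-type range. The log2 fold change was 0.10 (SE 0.19), with a 95% interval from -0.31 to 0.50 (edgeR adjusted p = 0.7895; two-sided exact permutation p = 0.548), so neither a fall nor a rise within that interval can be told from no change. Its lowest count was 53 reads in WT6, and its level was 5.35 CPM in KO4 and 9.34 CPM in WT2. Lrp8 overlaps 2 annotated antisense genes, Lrp8os1 and Lrp8os2. Annotated genes on the opposite strand also overlap Fyn (3), Dab1 (1) and Crkl (1), and none overlaps Vldlr or Crk. Per kilobase of exon the ratio of Vldlr to Lrp8 was 1.61 ± 0.359 in knockout and 1.24 ± 0.416 in wild type (SD, n = 5 each), with a range of 1.18 to 2.16 in knockout and 0.757 to 1.81 in wild type.

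Dab1 (ENSMUSG00000028519.16, chromosome 4, 103619359 to 104744844, plus strand), the adaptor that binds both receptor tails, was at 24.8 (KO2), 21.4 (KO3), 14.8 (KO5), 22 (KO6) and 20.6 CPM (KO8) in knockout, against 15.7 (WT1), 22.7 (WT3), 19.2 (WT5), 15.8 (WT6) and 16.3 CPM (WT7) in wild type. KO2 was the only knockout library of the 5 above WT3, and KO5 was below every wild-type library. The log2 fold change was 0.21 (SE 0.16; edgeR adjusted p = 0.437; two-sided exact permutation p = 0.246), and its sign turned to -0.031 with KO4 (12.1 CPM) and WT2 (28.8 CPM) included at equal weight, but not in a fit that weights libraries by quality (0.21). In cerebellum Dab1 and both receptors are known as Purkinje cell genes, and Purkinje cell markers moved with the libraries. The summed level of 15 such markers was 454 to 745 CPM in knockout and 376 to 500.5 CPM in wild type, with 418 CPM in KO4 and 916 CPM in WT2. Of 12 tested, 6 had an unadjusted p under 0.05, all higher in knockout, where 11.8% of all genes were, 0 passed over all genes in edgeR, and none of the 15 was at 0 in all 12 libraries. The part of these cells in the values of Vldlr and Dab1 was not tested, and in bulk tissue fewer cells of a type and less RNA per cell cannot be told apart. Gene counts do not separate the splice forms of Dab1, Lrp8 or Fyn.

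Fyn (ENSMUSG00000019843.14, chromosome 10, 39368855 to 39565381, plus strand), the Src family kinase that phosphorylates Dab1, was at 62.5 (KO2), 56.4 (KO3), 86.0 (KO5), 77.0 (KO6) and 62.8 CPM (KO8) in knockout, against 78.2 (WT1), 79.7 (WT3), 78.9 (WT5), 82.7 (WT6) and 82.5 CPM (WT7) in wild type. The wild-type libraries lay close together, with a coefficient of variation of 2.59%, the narrowest of the 7 genes, against 17.7% in knockout. Counting error alone was 2.815% (WT7) to 3.87% (WT6) in these libraries, so so narrow a spread is in part luck of sampling. KO5 was above every wild-type library and the other 4 knockout libraries were below every one. The mean was 68.9 ± 12.2 CPM in knockout and 80.4 ± 2.08 CPM in wild type (SD, n = 5 each), which gave a log2 fold change of -0.22 (SE 0.12; edgeR adjusted p = 0.268; two-sided exact permutation p = 0.119). KO4 had the highest value of all 12 libraries, 88.1 CPM, and WT2 the lowest, 47.3 CPM.

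Crk (ENSMUSG00000017776.15, chromosome 11, 75679259 to 75706908, plus strand) and Crkl (ENSMUSG00000006134.3, chromosome 16, 17451987 to 17487434, plus strand) encode related SH2 and SH3 domain adaptors that bind phosphorylated Dab1 and overlap in function in this pathway. Their differences ran in opposite directions. Crk was at 321 (KO2), 354 (KO3), 267 (KO5), 299 (KO6) and 321.5 CPM (KO8) in knockout, against 262 (WT1), 256 (WT3), 277 (WT5), 231.5 (WT6) and 271 CPM (WT7) in wild type. All knockout libraries but KO5 lay above every wild-type library. The mean was 312 ± 32.2 CPM in knockout and 260 ± 17.7 CPM in wild type (SD, n = 5 each), which gave a log2 fold change of 0.27 (SE 0.10; edgeR unadjusted p = 0.0143, adjusted p = 0.158; two-sided exact permutation p = 0.0238). After removal of the GC trend of each library it was 0.12 (edgeR adjusted p = 0.453), and with KO4 (235 CPM) and WT2 (421 CPM) included 0.06.

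Crkl had the largest difference of the 7 genes. It was at 20.4 (KO2), 16.8 (KO3), 30.6 (KO5), 27.65 (KO6) and 20.4 CPM (KO8) in knockout, against 38.7 (WT1), 26.3 (WT3), 29.3 (WT5), 42.1 (WT6) and 38.7 CPM (WT7) in wild type. KO2, KO3 and KO8 lay below every wild-type library, while KO5 was above WT3 and WT5 and KO6 above WT3. The mean was 23.2 ± 5.72 CPM in knockout and 35.03 ± 6.80 CPM in wild type (SD, n = 5 each), so the knockout level was 0.661 of the wild-type level. The log2 fold change of -0.60 had a standard error of 0.17 and a 95% interval from -0.95 to -0.24. It ranked 237 by p among the 13442 genes and did not pass (edgeR unadjusted p = 0.002525, adjusted p = 0.131; two-sided exact permutation p = 0.0397). It did pass in DESeq2 (adjusted p = 0.0391, where 3.34% of genes passed) and in edgeR without the filter on low counts (adjusted p = 0.00423, where 3.49% of genes passed). Removing the GC trend, which corrects only by a gene's own transcript GC, left the value at -0.60 (edgeR adjusted p = 0.168). Including KO4 (24.9 CPM) and WT2 (17.6 CPM) moved the value to -0.46 (edgeR unadjusted p = 0.0373, adjusted p = 0.999, where 0.00751% of genes passed). Per kilobase of exon the ratio of Crk to Crkl was 16.7 (KO2), 22.4 (KO3), 9.295 (KO5), 11.5 (KO6) and 16.8 (KO8) in knockout, against 7.20 (WT1), 10.4 (WT3), 10.1 (WT5), 5.87 (WT6) and 7.47 (WT7) in wild type, with 10.05 in KO4 and 25.5 in WT2. Crk was thus the more abundant of the pair in all 12 libraries.

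**Figure D2:**
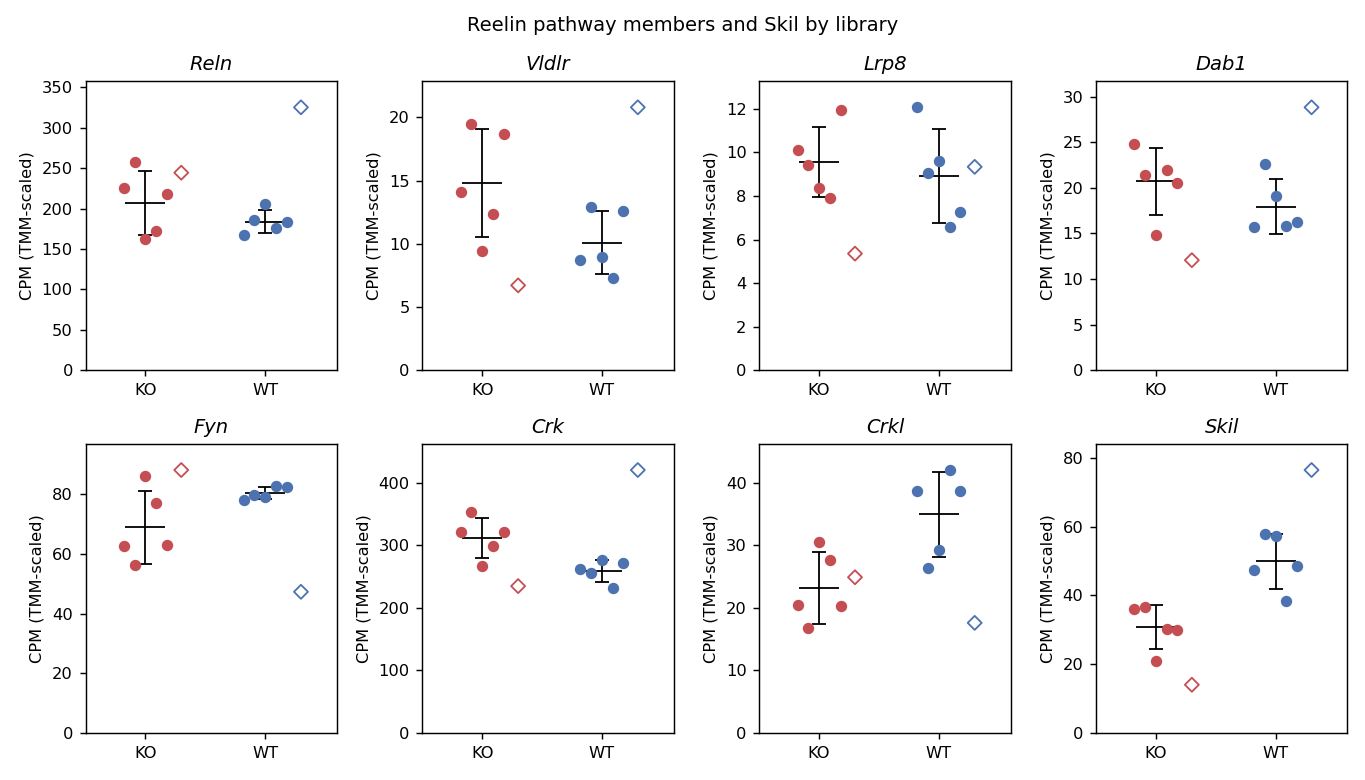
CPM of the 7 members and of Skil in each library, knockout on the left and wild type on the right of each panel. Filled circles are the 5 libraries of each group, bars their mean and SD, and open diamonds KO4 and WT2. Crkl is lower in KO2, KO3 and KO8 (16.8 to 20.4 CPM) than in any of the 5 wild-type libraries, and the diamonds stand in the opposite order to the means for each of the 7 members. The share of all genes with such an order was not counted.

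Vldlr, Crk and Fyn passed only in the fit without KO5, among the 22 alternatives run. Without KO5, 4 of the 7 genes passed in edgeR's test: Crkl (log2 fold change -0.72, adjusted p = 0.00304), Vldlr (0.67, adjusted p = 0.0134), Crk (0.32, adjusted p = 0.0134) and Fyn (-0.31, adjusted p = 0.0307). Reln (0.25, adjusted p = 0.0883), Dab1 (0.31, adjusted p = 0.124) and Lrp8 (0.14, adjusted p = 0.655) did not. In that fit 22.9% of the 13562 genes tested passed, against 0.0223% with KO5. Without any other single library 0 of the 7 passed, in fits in which 0 to 6 genes passed over all. With all 12 libraries weighted by quality in limma voom, the log2 fold changes were 0.15 for Reln, 0.53 for Vldlr, 0.03 for Lrp8, 0.21 for Dab1, -0.22 for Fyn, 0.22 for Crk and -0.59 for Crkl. There 0 of the 7 passed, where 4 of the 13318 genes tested did. In KO4 and WT2 the order was opposite to that of the means for 7 of the 7 genes, although Skil kept its order there (14.0 CPM in KO4 and 76.5 CPM in WT2). The share of all genes with an opposite order was not counted, so this cannot be read as particular to the members.

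**Figure D3:**
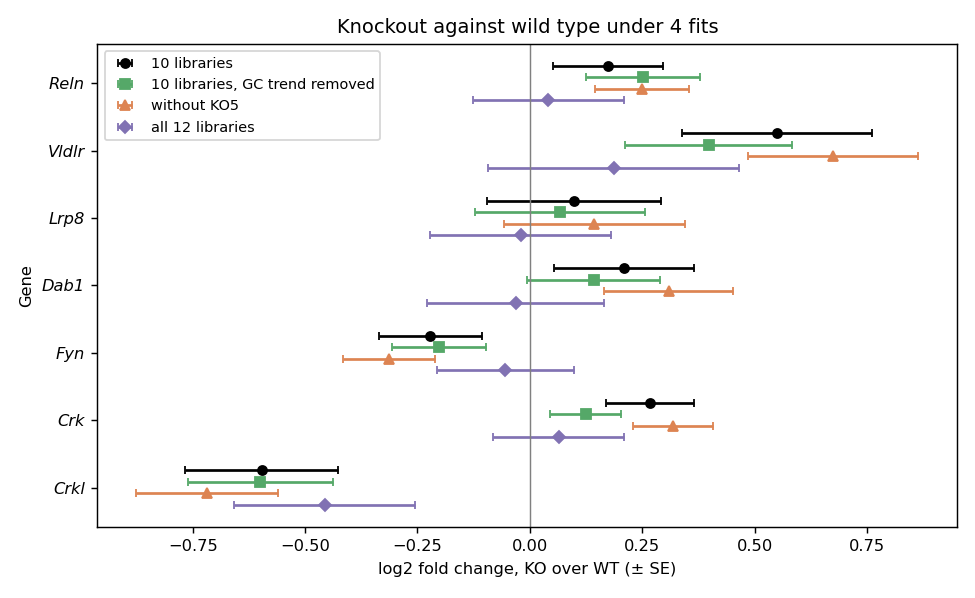
Log2 fold change of each member, knockout over wild type, with its standard error, in 4 fits of edgeR's model marked by shape and colour. Crkl stays between -0.72 and -0.46 in these fits, and the values of Dab1 and Lrp8 turn to -0.031 and -0.021 with all 12 libraries.

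Most of the members varied together across libraries, and Lrp8 did so least. Over the 12 libraries Crk had a Pearson r of -0.951 with Fyn and 0.894 with Vldlr. Lrp8 had a Pearson r of 0.498 with Crk, -0.290 with Crkl and 0.037 with Reln. As a measure of library composition, each gene's log2 CPM, less its mean over the 12 libraries, was regressed on the GC content of its longest transcript, and the slope taken per 10 percentage points of GC. The slope was -0.205 (KO2), -0.223 (KO3), 0.190 (KO5), 0.00341 (KO6) and -0.190 (KO8) in knockout, against 0.137 (WT1), 0.0413 (WT3), 0.112 (WT5), 0.277 (WT6) and 0.141 (WT7) in wild type, with 0.188 in KO4 and -0.471 in WT2. KO2, KO3, KO8 and WT2 were thus the only libraries of the 12 with a negative slope, and they are the libraries in which Crkl and Fyn were lowest. Over the 12 libraries the log2 level of Fyn had a Pearson r of 0.968 with the slope (Spearman rho 0.944, and r 0.936 without the 2 libraries whose slope was farthest from the median) and Crkl one of 0.865 (rho 0.832, and r 0.812 without them). The other 5 genes had negative values: -0.959 for Crk (rho -0.881, r -0.902), -0.901 for Vldlr (rho -0.867, r -0.857), -0.842 for Dab1 (rho -0.853, r -0.778), -0.780 for Reln (rho -0.657, r -0.440) and -0.494 for Lrp8 (rho -0.552, r -0.608). These values describe libraries that share their preparation and the same total, and a like relation was common: the absolute r was above 0.7 for 6 of the 7 members and for 38.3% of 13318 genes, with a median of 0.581. The GC content of the longest transcripts was 43.8% for Vldlr and Crk, 46.2% for Dab1, 47.4% for Lrp8, 48.4% for Crkl, 49.3% for Fyn and 51.1% for Reln. Removing the trend in the fit moved Reln to 0.25, Dab1 to 0.14, Vldlr to 0.40, Lrp8 to 0.07 and Fyn to -0.20, and 0 of the 7 genes passed in edgeR, against 0.0372% of all genes. That fit takes out only the trend at a gene's own transcript GC. Crkl, whose r with the slope was 0.865, stayed at -0.60 in it. The part of library composition in the differences between the groups was not tested.

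**Figure D4:**
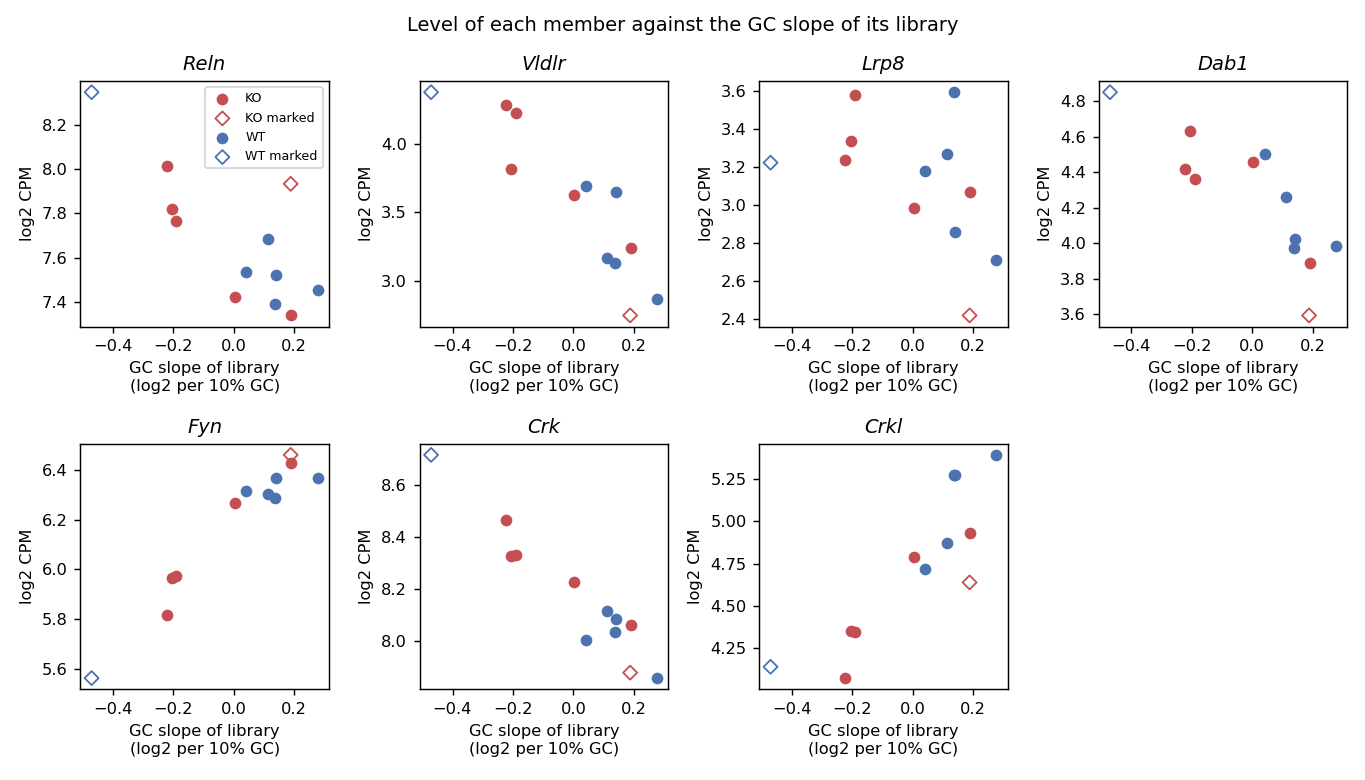
Log2 CPM of each member against the GC slope of its library (change of log2 CPM per 10 percentage points of transcript GC), with knockout in red, wild type in blue and KO4 and WT2 as open diamonds. Fyn and Crkl are higher at higher slopes and the other 5 genes lower. The slope of KO5, 0.190, lies among those of the 5 compared wild-type libraries, though its levels of Reln, Dab1 and Fyn lie outside their range.

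Among 8686 genes with a mean of at least 10 CPM, the profile over the 10 compared libraries most like that of Reln was that of Dcaf13, with a Pearson r of 0.964, followed by Slc1a2 (0.957), a glutamate transporter of astrocytes. Mpp7 (0.954) and Jade3 (0.946) were nearest to Dab1, Med31 (0.979) and Coa6 (0.969) to Vldlr, and Rpap2 (0.933) and Tox4 (0.899) to Lrp8. Alg13 (0.983) and Nme1 (0.972) were nearest to Crk, Fzd2 (0.987), a Wnt receptor, and Prepl (0.987) to Crkl, and Dnajc8 (0.969) and Ist1 (0.967) to Fyn. Spearman rho of these 14 pairs was 0.855 to 0.976, and r without the 2 libraries farthest from the member's median was 0.908 to 0.988. The 10 points share the library differences described above, and the values are descriptions without a test.

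Of 128 other genes of the pathway listed by role, 125 were tested. Adamts3, a protease that cleaves Reelin, Lrp2 and Grin2c were below the filter. None of the 125 passed over all genes in edgeR's test, where 0.0223% of all genes did, and 3 passed in DESeq2, where 3.34% did. At an unadjusted p under 0.05, 22 were higher and 17 lower in knockout, against 11.8% and 9.97% of all genes, and the median log2 fold change was 0.03. In 7 of the 125 the groups did not overlap, against 2.35% of all genes. With the GC trend removed 14 were higher and 9 lower at that level, against 8% and 7.64% of all genes, and with all 12 libraries 2 were higher and 0 lower, against 1.91% and 1.55%. Without KO5 38 of them passed, in the fit in which 22.9% of all genes did.

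Upstream of the adaptors, 3 of 11 tested genes of ligand processing were higher and 0 lower by an unadjusted p under 0.05, against 11.8% and 9.97% of all genes. The counts of the other role groups are to be read against the same shares. The 2 with the smallest p were the secreted metalloproteases Adamts5 (5.45 ± 0.747 CPM in knockout and 3.27 ± 1.42 CPM in wild type; SD, n = 5 each here and below) and Adamts14 (4.15 ± 1.01 CPM in knockout and 2.55 ± 1.004 CPM in wild type), both at low levels. Of 12 genes of other lipoprotein receptors and receptor turnover, 1 was higher, the membrane protease Adam10 (411 ± 121 CPM in knockout and 281 ± 49.3 CPM in wild type), and 1 lower, the receptor-recycling protein Snx17 (105.5 ± 27.4 CPM in knockout and 136 ± 12.9 CPM in wild type). Integrins, ephrins and receptor partners had 1 higher and 3 lower of 12. Aplp1, a relative of the amyloid precursor protein, had 167 ± 20.3 CPM in knockout and 222 ± 15.4 CPM in wild type, and the ephrin receptor Ephb2 had 73.1 ± 5.18 CPM in knockout and 90.5 ± 10.4 CPM in wild type. In both the 5 knockout libraries lay below the 5 wild-type libraries, and their edgeR adjusted p was 0.124 and 0.1445. KO4 and WT2 stood in the opposite order for both (191 CPM in KO4 and 92.7 CPM in WT2 for Aplp1, 112 CPM in KO4 and 54.25 CPM in WT2 for Ephb2).

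Over the 20 genes named by their p in the role groups, KO4 and WT2 stood in the opposite order to the group means in 19, the exception being Adamts14. The share of all genes with such an order was not counted.

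At the level of Dab1 phosphorylation and turnover, the means of a pair of other Src family kinases differed in opposite directions. Yes1 had 114 ± 14.2 CPM in knockout and 88.4 ± 14.9 CPM in wild type, and Src had 29.0 ± 4.31 CPM in knockout and 36.4 ± 6.91 CPM in wild type (edgeR adjusted p = 0.145 and 0.194). Of 12 genes of Dab1 turnover, 1 was higher at an unadjusted p under 0.05, Socs6 of the SOCS family of ubiquitin ligase adaptors (85.1 ± 17.3 CPM in knockout and 62.1 ± 8.49 CPM in wild type, edgeR adjusted p = 0.131). The ubiquitin ligase gene Cblb was at 27.4 ± 4.52 CPM in knockout and 22.6 ± 3.28 CPM in wild type. The genes of the ligase parts Cul5 and Socs7, which mark phosphorylated Dab1 for degradation, had log2 fold changes of 0.25 and -0.01 (edgeR adjusted p = 0.304 and 0.971).

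Downstream of Crk and Crkl, 5 of 23 genes of the Rap1 and adhesion branch were higher and 0 lower by an unadjusted p under 0.05, which is 21.7% in either direction, against 21.8% of all genes. Afdn, which links nectins to actin and binds Rap1, had 138 ± 31.6 CPM in knockout and 98.2 ± 17.3 CPM in wild type, and the adhesion molecule Nectin3 had 181 ± 29.7 CPM in knockout and 141 ± 4.70 CPM in wild type (edgeR adjusted p = 0.132 for each). Rapgef1, the Rap1 exchange factor that Crk proteins carry, had a log2 fold change of -0.10 (edgeR adjusted p = 0.524). The PI3K-Akt-GSK3 branch had 3 higher and 3 lower of 15. The PI3K regulatory subunit Pik3r2 was at 101 ± 15.6 CPM in knockout and 134 ± 8.64 CPM in wild type with no overlap between these groups (107.5 CPM in KO4 and 48.3 CPM in WT2). The kinase Gsk3a was at 32.8 ± 8.43 CPM in knockout and 47.9 ± 9.26 CPM in wild type (edgeR adjusted p = 0.131 for each of the pair). The cytoskeleton branch had 7 higher and 4 lower of 21, the 2 smallest p being those of the GTPase Rac1 (173 ± 17.8 CPM in knockout and 209 ± 19.0 CPM in wild type) and the cofilin kinase Limk2 (22.8 ± 1.84 CPM in knockout and 28.1 ± 3.58 CPM in wild type). Cdk5, a kinase that acts on neuronal migration in parallel to Reelin, had 45.1 ± 5.27 CPM in knockout and 56.2 ± 7.57 CPM in wild type, and its activator Cdk5r2 had 10.45 ± 3.40 CPM in knockout and 14.6 ± 3.73 CPM in wild type. In all, 2 of 3 genes of this branch were lower at an unadjusted p under 0.05. Among 8 synaptic targets 0 were higher and 2 lower: Mapk8ip2, a scaffold protein that binds the tail of Lrp8, had 77.5 ± 9.47 CPM in knockout and 105 ± 9.62 CPM in wild type, and the glutamate receptor subunit Grin1 had 2.635 ± 0.672 CPM in knockout and 4.84 ± 1.21 CPM in wild type (edgeR adjusted p = 0.124 and 0.131). Grin1 was at 6.23 CPM in KO4 and 2.955 CPM in WT2.

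**Figure D5:**
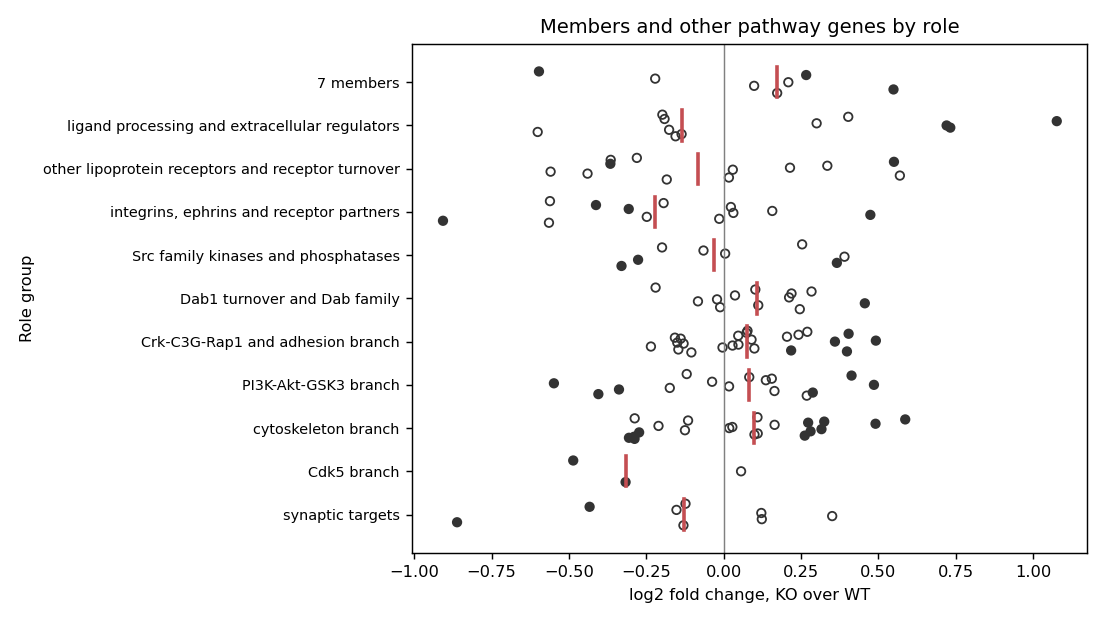
Log2 fold change, knockout over wild type, of the 7 members (top row) and of the 125 other pathway genes by role group, 1 point a gene. Filled points have an unadjusted p under 0.05, red bars are medians, and filled points lie on both sides of 0 in 6 of the 11 rows.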

How the data were processed

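RNA-seq counts of 12 EGL libraries were analysed. Per the submitters' processing notes, the authors used cutadapt 1.16, STAR 2.5.3a and HTSeq 0.6.1 with mm10, and DESeq2 (version not given). The deposited values are raw read counts per gene, 1 table a library, and 5 HTSeq summary rows were left out. Among these, records without a unique alignment were 64.4% (KO2) to 67.6% (WT2) of all records. Reads with no feature were 10.8 to 14.7% and ambiguous reads 6.81 to 8.13% of uniquely mapped reads. The annotation and strand setting of the counting: not given in the sources used here. Of 53379 gene IDs, 53274 matched GENCODE M21.

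From these, edgeR 4.0.16 (R 4.3.3) gave TMM factors, filterByExpr with a minimum count of 10, robust quasi-likelihood tests and Benjamini-Hochberg adjustment over 13442 genes, for 5 knockout against 5 wild-type libraries without KO4 and WT2. Permutation tests were two-sided and exact, on log2(CPM + 1). The GC trend was removed as a spline (5 degrees of freedom) of log2 CPM on transcript GC. Alternatives used DESeq2 1.42.0, limma 3.58.1, no filter, all 12 libraries, KO2 as wild type, a replicate block and each library left out. On simulated data, 40.3% of genes changed 1.5-fold and 89.6% of those changed 2-fold were recovered, and 6.21% of calls were unchanged genes. Whether these rates hold for the real libraries, in which the levels of many genes moved with the GC slope, was not tested. The members and lists were chosen with earlier results of these data known. Named pathway genes are the 2 with the smallest p of each role group; Cul5, Socs7 and Rapgef1 were added after their values were seen. Intervals of log2 fold changes come from the edgeR standard error over libraries; Poisson intervals and counting errors cover counting only. No 2 libraries of a group agreed within sampling noise.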

Additional observations from a re-analysis of the deposited data

Results flagged for a closer look

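Among 76 groups of 5 libraries looked at, 5 had a library far from the other 4, and chance gives about 1 in 20. Ephb2 stood at 82.1 CPM in KO5, against 69.5 to 72.5 CPM in the other knockout libraries, and at 108.5 CPM in WT6, against 83.4 to 89.9 CPM in the other wild-type libraries. Grin1 was at 6.93 CPM in WT6 and 4.05 to 4.77 CPM in the other wild-type libraries. The summed level of Bergmann glia and astrocyte markers was 807.5 CPM in WT6 and 1139 to 1246 CPM in the other wild-type libraries. The sum of meningeal fibroblast markers was 803.9 CPM in WT3 and 454 to 521 CPM in the other wild-type libraries. None of these 5 concerns a library value of the 7 members.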

How the results depend on the processing

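Each log2 fold change was recomputed under 22 alternatives. Signs turned for Reln (-0.082 with GC trend removed, replicate block and all 12 libraries, an alternative chosen after seeing the data), Dab1 (-0.031 with all 12 libraries, -0.056 with these and the GC trend removed, -0.047 with GC trend and replicate block, -0.068 with both and all 12) and Lrp8 (-0.021 with all 12 libraries, -0.039 with these and the GC trend removed). Over the 22 alternatives Crkl ran from -0.72 to -0.24, Vldlr from 0.14 to 0.67, Crk from 0.02 to 0.32 and Fyn from -0.31 to -0.008. The smallest in size came for Crkl and Fyn with GC trend removed, replicate block and all 12 libraries. For Vldlr and Crk it came with GC trend removed and all 12 libraries. Crkl passed without a filter (-0.60) and in DESeq2 (-0.60). Leaving out 1 library gave 0.08 to 0.25 for Reln, 0.14 to 0.31 for Dab1, 0.43 to 0.67 for Vldlr, 0.01 to 0.24 for Lrp8, 0.22 to 0.32 for Crk, -0.72 to -0.50 for Crkl and -0.31 to -0.16 for Fyn; without 1 library, calls came only without KO5. With KO2 as wild type the values were 0.088 for Reln, 0.049 for Dab1, 0.48 for Vldlr, 0.048 for Lrp8, 0.20 for Crk, -0.45 for Crkl and -0.13 for Fyn. Over all genes 3 passed, against 965 without a filter, 449 in DESeq2, 1 with all 12 libraries, 0 with KO2 as wild type, 5 with the GC trend removed and 0 to 3102 with 1 library left out. Other pathway genes passing were 0, against 10 without a filter, 3 in DESeq2 and 0 to 38 with 1 library left out. The cause was not tested. Same-numbered libraries correlated at 0.111 (KO3 and WT3), -0.047 (KO5 and WT5) and 0.094 (KO6 and WT6). Libraries with unlike numbers ran from -0.236 to 0.283, so these values cannot decide whether the numbers pair libraries. With the replicate block 0 genes passed, alone, with the GC trend removed, and with that and all 12 libraries. Only these numbers occur in both groups of the 10 compared libraries. The block alone thus set KO3, KO5 and KO6 against WT3, WT5 and WT6. That fit gave 0.034 for Reln, 0.0015 for Dab1, 0.47 for Vldlr, 0.036 for Lrp8, 0.26 for Crk, -0.39 for Crkl and -0.16 for Fyn. Depth limits Lrp8 and Vldlr most, with 53 and 59 reads in WT6.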
